A study of Bos taurus with 30 samples.

Results

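The ATAC-seq peak lists of bovine 2-cell embryos kept in α-amanitin were set against those of untreated 2-cell embryos. The comparison rests on 6 of the 30 libraries of the series, chosen by the stage and treatment in their labels, with 3 libraries of transcription blocked embryos (TBE) and 3 libraries of control embryos. All embryos were produced in vitro from oocytes of abattoir ovaries and frozen semen of a Holstein bull. TBE had been cultured with α-amanitin at 50 µg/ml from the first day, beside control embryos of the same collections, and both were collected between 30 and 32 h post-insemination. Each library came from a pool of at least 500 cells, and the 3 libraries of a group came from separate oocyte collections, so that each value is a mean over many embryos. The other 24 libraries, 3 each of GV oocytes, 4-cell and 8-cell controls, 4-cell and 8-cell TBE, morula, the inner cell mass of blastocysts (ICM) and embryonic stem cells (ESC), served here only to place the 2-cell peaks.

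α-Amanitin binds RNA polymerase II and stops it from elongating transcripts, so that embryos cultured with it live on the RNA and protein stored in the oocyte. Early cleavage is under maternal control, and in cattle the major wave of embryonic genome activation comes several divisions after fertilization, later than the 2-cell stage. ATAC-seq inserts adapters into accessible DNA with the Tn5 transposase, and a peak is a stretch where insertions exceed what is expected nearby in that library. The comparison addresses whether the open chromatin of the 2-cell embryo differs when polymerase II cannot elongate, before the major wave has begun.

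The lists give no read numbers, so a background level, the chance pileup at any one position, was solved for every library from the fold enrichment and -log10 p of its peaks. Libraries with more tags have a higher level. In TBE it was at most 0.14 for replicate 1, 0.196 for replicate 2 and 0.343 for replicate 3. In controls it was at most 0.22 for replicate 1, 0.123 for replicate 2 and 0.718 for replicate 3. The ranges of the groups overlapped, and the deepest of the 6 libraries was a control.

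The TBE lists held 925, 8118 and 11083 peaks, and the control lists held 1002, 1262 and 6440 peaks. Each group thus had at least 1 very short list, and 2 of 3 TBE lists were longer than every control list. The mean of the log2 number was 12.09 ± 1.95 (SD, n = 3) in TBE and 10.97 ± 1.46 (SD, n = 3) in controls, a 2.17-fold ratio that was smaller than the spread within either group (exact permutation test, two-sided, p = 0.5). With 3 libraries against 3 such an exact permutation test cannot go below p = 0.1. The difference in log2 number ranged from 0.45 without TBE replicate 3 to 2.24 without TBE replicate 1. Covered length followed the number, with 0.347, 2.93 and 4.56 Mb in TBE and 0.444, 0.474 and 2.92 Mb in controls (exact permutation test, p = 0.6).

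The longer list of a pair was not always that of the deeper library. TBE replicate 2, with a level of 0.196, held more peaks than control replicate 3, with a level of 0.718. Per unit of background level, TBE replicates 2 and 3 held 41418 and 32312 peaks, and control replicates 2 and 3 held 10260 and 8969. The level of control replicate 2 rested on only 3 peaks, against 96 and 79 in these TBE libraries and 273 in control replicate 3. Whether the number of peaks rises in proportion to the level was not tested. The remaining library of each group had only an upper limit for its level, which gave at least 6607 peaks per unit in TBE replicate 1 and at least 4555 in control replicate 1. The part of depth in the number of peaks was not tested further.

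**Figure D1:**
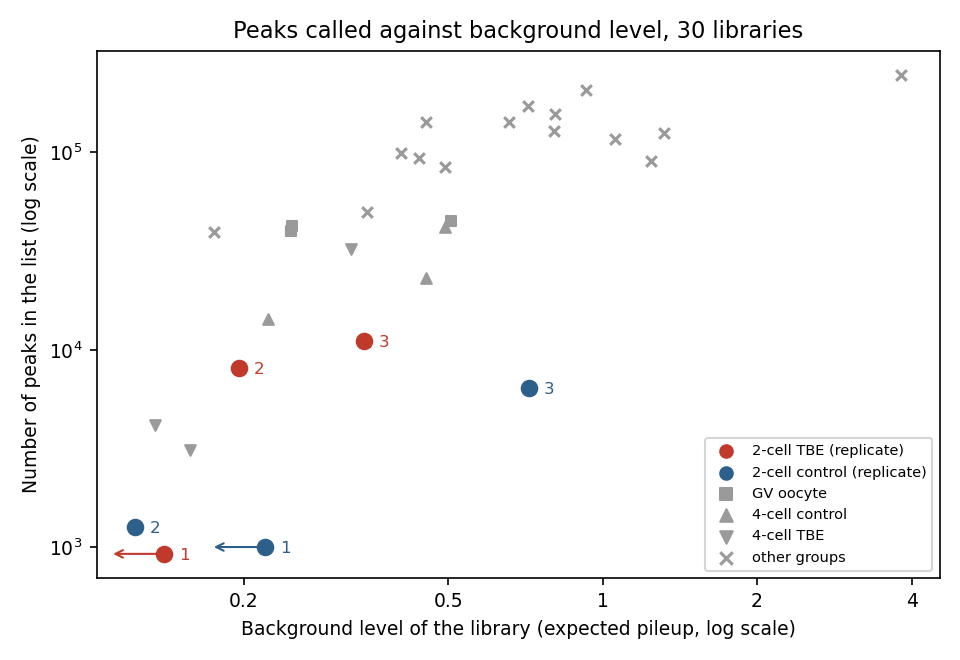
Number of peaks in each list against the background level of the library, both on log scales, for the 30 libraries, with 2-cell libraries in colour and numbered by replicate and an arrow where the level is an upper limit. TBE replicates 2 and 3 held 8118 and 11083 peaks at levels of 0.196 and 0.343, while control replicate 3 held 6440 at 0.718.

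Width and enrichment of the peaks differed between the groups by less than the spread between libraries. The median peak width was 219, 243 and 290 bp in TBE and 277, 207 and 317.5 bp in controls (exact permutation test, p = 0.8). The median fold enrichment over background was 4.46, 3.94 and 4.14 in TBE and 4.46, 4.21 and 3.75 in controls (exact permutation test, p = 0.9). The longest list of each group did not have its highest enrichment, and the ranges overlapped. The median -log10 q was 2.27, 1.77 and 2.09 in TBE against 2.06, 1.92 and 1.43 in controls (exact permutation test, p = 0.4). Peaks whose -log10 q was 3 or higher numbered 284, 1261 and 2785 in TBE and 357, 322 and 804 in controls, so that the 2 longer TBE lists also held the most strong peaks.

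Most 2-cell peaks of either group lay where oocytes or later stages had accessible chromatin. For each stage, overlapping peaks of the replicates were joined into regions, of which those called in at least 2 of 3 replicates were kept, and a peak was counted as inside when it shared at least 1 bp with a region. Regions of GV oocytes took in 80.2, 57.5 and 65.0% of TBE peaks and 67.5, 62.9 and 49.8% of control peaks. The groups overlapped, with a difference of 7.50 percentage points (exact permutation test, p = 0.5). It came to 1.17 points without TBE replicate 1, 2.37 without control replicate 3 and 12.5 without TBE replicate 2, and to 15.8 with an equal number of top peaks from each list. These regions covered 0.967% of the assembled chromosomes.

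Among 8 groups of libraries used for placing peaks, morula was the one whose regions separated TBE from control at the main setting. Morula regions took in 75.8, 66.5 and 77.4% of TBE peaks and 63.9, 62.4 and 57.3% of control peaks, so that the lowest TBE library lay above the highest control library. The means were 73.2 ± 5.87% and 61.2 ± 3.47% (SD, n = 3 each, exact permutation test, p = 0.1, adjusted p = 0.64 over 8). With an equal number of top regions for each stage the difference was 2.25 percentage points (exact permutation test, p = 0.3). Shares in 8-cell control regions were 80.3, 63.6 and 74.1% in TBE against 67.7, 65.3 and 57.1% in controls, and shares in ESC regions were 69.6, 56.8 and 65.6% against 57.6, 53.2 and 48.6%. In both cases the ranges overlapped, with exact permutation p-values of 0.3 and 0.2. With regions from all 3 replicates the exact permutation p was 0.1 for morula, 8-cell control and ESC regions alike. The share in 4-cell TBE regions had the most spread, with 59.1, 25.6 and 24.1% in TBE and 41.5, 46.6 and 24.1% in controls (exact permutation test, p = 0.9).

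Read from the oocyte's side, a larger share of oocyte regions carried a peak in TBE replicates 2 and 3 than in any control. Of 33347 GV oocyte regions, 2.21, 13.97 and 21.56% had a peak in the TBE libraries, and 2.00, 2.36 and 9.60% had one in the controls. TBE replicate 1 lay among the controls. The means were 12.6 ± 9.75% and 4.65 ± 4.29% (SD, n = 3 each, exact permutation test, p = 0.3, adjusted p = 0.343 over 8). The difference of 7.93 percentage points became 3.44 without TBE replicate 3 and 13.1 without TBE replicate 1. With an equal number of top peaks from each list, the means were 2.46% and 2.01%, a difference of 0.447 points. Of 15117 4-cell control regions, 4.72, 27.65 and 40.87% had a TBE peak and 4.14, 5.19 and 19.15% a control peak, and the same 3 libraries had the highest shares (exact permutation test, p = 0.3). With equal lists this difference was 0.895 points.

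Detection at the 2-cell stage was highest among the regions that were strongest in the oocyte, in each of the 6 libraries. Oocyte regions were divided into 10 equal parts by their fold enrichment in GV oocytes. In the strongest part, 10.6, 49.9 and 65.5% had a peak in TBE and 7.53, 10.9 and 33.6% in controls. In the weakest part the values were 0.750, 3.21 and 6.33% in TBE and 1.05, 0.900 and 3.84% in controls, so that there TBE replicate 2 was below control replicate 3. In each of the other 9 parts TBE replicate 2 was above control replicate 3, by 1.21 to 1.61 times.

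**Figure D2:**
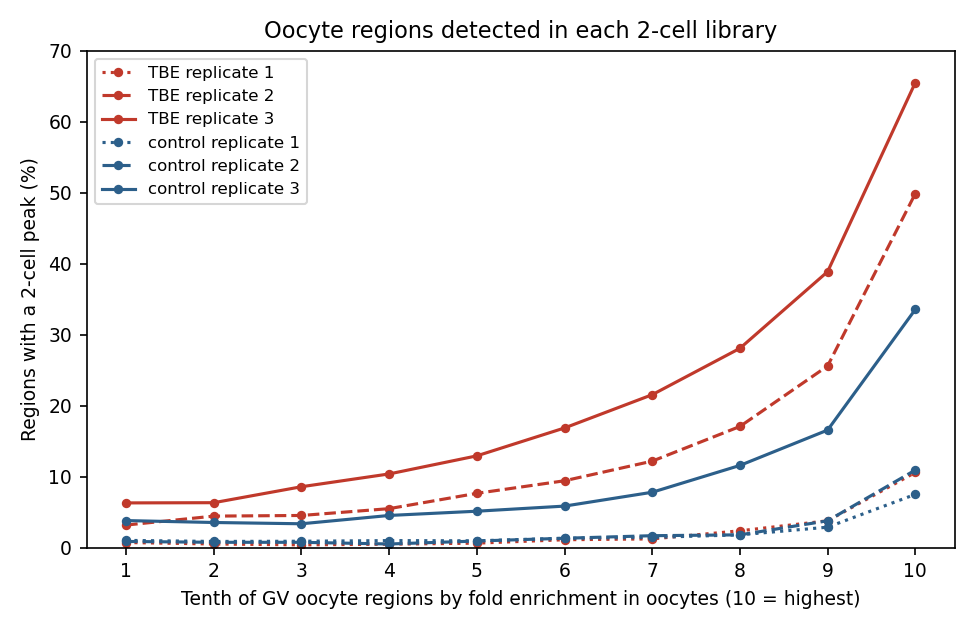
Percentage of GV oocyte regions with a peak in each 2-cell library (vertical axis), by 10 equal parts of fold enrichment in oocytes (horizontal axis, 10 is the strongest). TBE replicates 2 and 3 reach 49.9 and 65.5% in the strongest part, control replicate 3 reaches 33.6%, and the 3 other libraries stay between 7.53 and 10.9%.

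Oocyte regions with a 2-cell peak were stronger in the oocyte than those without one, in the medians. They were also wider, with a median of 850 bp against 624 bp, and width was not held equal. The 1545 oocyte regions with a peak in at least 2 TBE libraries and in no control had a median fold enrichment of 5.40 in oocytes. The 498 regions with peaks in at least 2 libraries of each group stood at 6.04, and the 23283 with no peak in the 6 libraries at 4.02. For the 4762 regions with a peak in 1 TBE library and no control the median was 4.61, against 4.34 for the 1006 with a peak in 1 control and no TBE library. The 43 regions in at least 2 controls and no TBE library stood at 4.66. Over all oocyte regions with a peak in any TBE library the median was 4.97, and over those with a peak in any control it was 5.16. The quartiles of the TBE-only regions, 4.68 and 6.20, overlapped those of the regions in both groups, 4.97 and 7.17, and these values are a description with no test.

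Oocyte regions that were also called at the 4-cell stage had a 2-cell peak more often than those called at no later stage, in each of the 6 libraries. This split was chosen after the data had been seen. Of 11511 oocyte regions that overlapped a 4-cell control region, 5.89, 33.6 and 49.3% had a TBE peak and 5.06, 6.25 and 23.0% a control peak (exact permutation test, p = 0.3). Of 6307 oocyte regions that overlapped no later control region, 0.0951, 1.33 and 1.74% had a TBE peak and 0.0951, 0.238 and 1.24% a control peak. In the latter set no library of either group reached 2%, and the groups overlapped (exact permutation test, p = 0.5). The 2 sets also differed in strength, with median fold enrichments in oocytes of 4.85 and 3.81.

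Conversely, 4-cell regions without an oocyte counterpart were detected less than those with one. Among 3630 4-cell control regions with no oocyte region, 0.882, 8.51 and 13.9% had a TBE peak and 1.13, 1.68 and 6.94% a control peak. Among 11487 4-cell regions with an oocyte region the values were 5.93, 33.7 and 49.4% in TBE and 5.09, 6.29 and 23.0% in controls. In each of the 6 libraries the first set was detected less often than the second. TBE and control overlapped in both sets (exact permutation test, p = 0.4 for the first and p = 0.3 for the second). Strength and width of the 2 sets were not held equal.

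Peaks that the other group lacked made up a large part of every list. In TBE, 399, 6252 and 8606 peaks, or 43.1, 77.0 and 77.7%, overlapped no control peak. In controls, 483, 546 and 3879 peaks, or 48.2, 43.3 and 60.2%, overlapped no TBE peak. The ranges of the percentages overlapped (exact permutation test, p = 0.4). These peaks were weaker than those present in the other group, with a median fold enrichment of 4.08, 3.82 and 4.02 against 4.84, 4.56 and 4.71 in TBE, and of 4.21, 3.87 and 3.62 against 4.94, 4.58 and 4.08 in controls.

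The extra peaks of TBE lay more often in chromatin that was accessible both in the oocyte and later. Of the TBE peaks absent from controls, 59.1, 45.5 and 55.8% were in regions of GV oocytes and of at least 1 later control stage, ICM or ESC. Of the control peaks absent from TBE, 36.9, 21.8 and 21.2% were. No library of 1 group reached the range of the other. The means were 53.5 ± 7.14% and 26.6 ± 8.86%, a difference of 26.8 percentage points (SD, n = 3 each, exact permutation test, p = 0.1, the smallest that the design allows, adjusted p = 0.35 over 14). The difference was 15.8 percentage points without TBE replicate 3 and 23.0 without TBE replicate 1 (exact permutation test, p = 0.2 for each). It was 11.3 with an equal number of top regions for every stage, where the means were 13.7% and 2.46%. Of 30 measures compared between the groups, 5 separated them without overlap. Labels given at random would separate a single measure with a probability of 0.1. The shares of extra peaks by position, here and below, add up to the whole, so they are not independent.

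The other extra peaks lay more often outside all regions in controls. Peaks in no oocyte or later region made up 24.3, 31.0 and 18.2% of the extra TBE peaks and 34.8, 48.4 and 48.0% of the extra control peaks, again without overlap (exact permutation test, p = 0.1, adjusted p = 0.35). The difference of -19.2 percentage points was -9.19 without TBE replicate 3 and -11.0 with regions from any replicate, with exact permutation p-values of 0.3 and 0.2. Peaks in later regions only made up 15.0, 22.0 and 24.6% in TBE and 27.1, 27.3 and 28.8% in controls, also without overlap (exact permutation test, p = 0.1, adjusted p = 0.35), although this order turned round when every stage was given an equal number of top regions, where the means were 12.3% and 6.49%. With regions from all 3 replicates the difference of -7.18 points was -2.37 (exact permutation test, p = 0.6), and without TBE replicate 1 it was -4.39. Peaks in oocyte regions only were rare in both, between 1.24 and 2.56%. Peaks found in both groups lay in oocyte and later regions in 89.8 to 94.9% of cases in each of the 6 libraries.

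**Figure D3:**
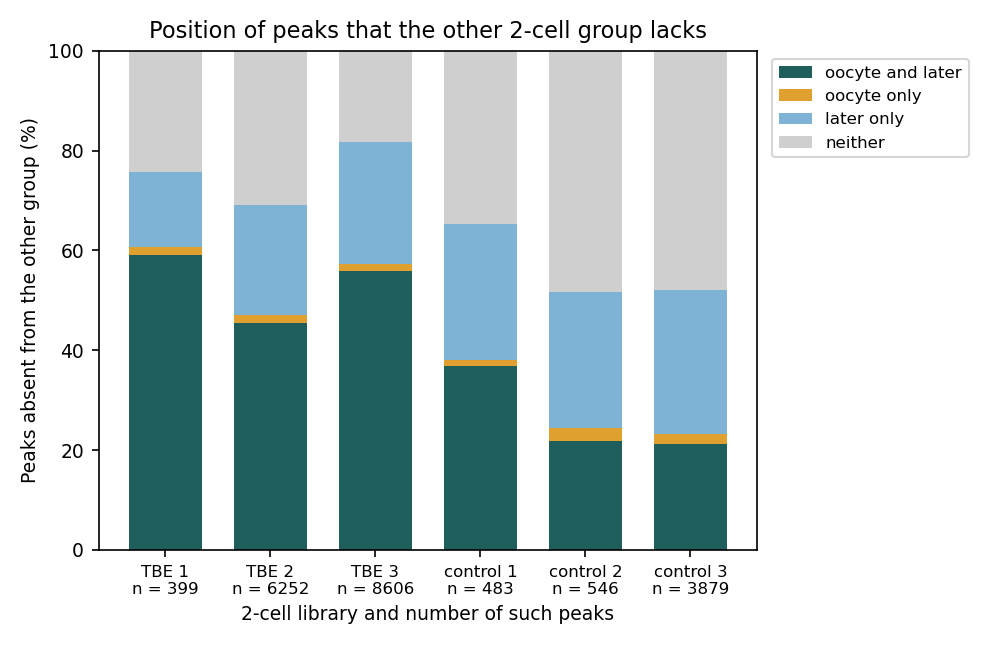
Percentage of peaks absent from every library of the other 2-cell group (vertical axis) that lay in regions of both oocytes and later stages, of oocytes only, of later stages only, or of neither, for the 6 libraries with the number of such peaks. The lowest segment spans 45.5 to 59.1% in TBE and 21.2 to 36.9% in controls.

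The lists set against each other in these counts were of unequal length, since TBE together held more peaks that could remove a control peak. Peaks were therefore also taken by pairs of lists, as those of a TBE library absent from a single control library and the reverse, a comparison added after the data had been seen. In 9 of 9 pairs the private peaks of TBE lay more often in oocyte regions. The means were 61.5% for TBE and 42.4% for controls, a difference of 19.2 percentage points (exact permutation test over libraries, two-sided, p = 0.1). TBE replicate 2 and control replicate 3 had covered lengths of 2.93 and 2.92 Mb, and between them 48.4% of 6464 private TBE peaks and 34.9% of 4791 private control peaks were in oocyte regions. These 2 libraries were not alike in background level (0.196 and 0.718), number of peaks (8118 and 6440) or median -log10 q (1.77 and 1.43).

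Merging the peaks of the 6 libraries gave 21242 regions, of which most were found in a single library. A peak in 1 TBE library and no control accounted for 11858 regions, and a peak in 1 control and no TBE library for 4780. Regions with a peak in all 3 TBE and no control libraries numbered 69 (0.325% of the merged regions), and those with a peak in all 3 control and no TBE libraries numbered 6 (0.0282%). At least 2 TBE libraries and no control held 1640 regions (7.72%), and at least 2 controls and no TBE library held 59 (0.278%). These counts are descriptions and have no test. They moved with single libraries, since 1484 of the 1640 regions, or 90.5%, came from TBE replicates 2 and 3 together. Without TBE replicate 2 there were 132 regions, without TBE replicate 3 there were 92, and without control replicate 3 there were 2583. The 59 became 92, 136 and 12 in the same order, 30 without control replicate 1 and 29 without control replicate 2, so that without TBE replicate 3 the regions of controls outnumbered those of TBE.

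**Figure D4:**
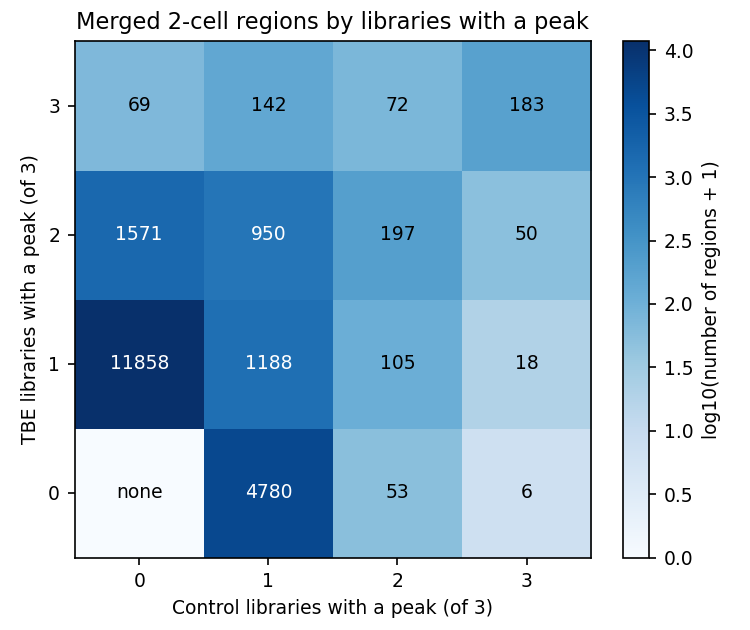
Number of merged 2-cell regions by how many of 3 TBE libraries (vertical axis) and of 3 control libraries (horizontal axis) had a peak in them, coloured by log10 of the number plus 1. Single-library regions dominate, with 11858 in TBE and 4780 in controls, and 183 regions had a peak in all 6 libraries.

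Most of the 1640 TBE-only regions overlapped a region of the oocyte. Of them, 1498 (91.3%) overlapped a GV oocyte region, 1403 (85.5%) a 4-cell control region, 1554 (94.8%) an 8-cell control region and 1569 (95.7%) a morula region. Over all 21242 merged regions these shares were 48.3% for GV oocytes, 39.9% for 4-cell controls, 57.3% for 8-cell controls and 61.1% for morula. Regions with a peak in at least 1 library of each group, which recur by definition, lay in GV oocyte regions in 89.9% of cases. In 1256 of the 1640 TBE-only regions (76.6%) every control stage from oocyte to morula, ICM and ESC had a region. A further 108 (6.59%) had a region in all of these stages except the 4-cell stage. Only 8 were in oocyte regions alone, 111 in later regions alone and 31 in neither. Single-library TBE regions were less often placed there, with 40.4% in oocyte and later regions and 29.9% in neither, and single-library control regions had 21.7% and 47.9%.

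The 59 control-only regions were few and lay less often in regions of other stages than the TBE-only regions did. Of them 39 (66.1%) overlapped a GV oocyte region and 40 (67.8%) a 4-cell control region. Regions of 8-cell controls overlapped 46 (78.0%), ICM regions 47 (79.7%) and morula regions 33 (55.9%). Over all merged regions the shares were 48.3, 39.9, 57.3, 53.9 and 61.1% in the same order, so that only the morula share of these was lower in control-only regions. Unplaced scaffolds, the short sequences of the assembly with no chromosome, held 22 of the 59, against 13 of the 1640. All 6 regions found in every control and no TBE library were on scaffolds, and 1 of the 69 with the groups exchanged was.

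Shared regions, with a peak in at least 2 libraries of each group, numbered 502. Regions of GV oocytes overlapped 491 of them and regions of 4-cell controls 501. Scaffolds held 165 of them (32.9%). Their median width was 639.5 bp, against 394.5 bp for the TBE-only regions. A region joins the overlapping peaks of its libraries, so classes with more libraries can be wider by construction. The median was 236 bp for regions in 1 TBE library and no control, and 778 bp for those in all 6 libraries.

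The TBE-only regions were also followed library by library at other stages. In GV oocytes 90.2, 90.1 and 90.7% of them had a peak, and in 4-cell controls 93.8, 81.3 and 61.5%. In 4-cell TBE, which had been in α-amanitin for longer, 87.9, 31.4 and 18.3% had one. The order within the 4-cell groups went with list length, since the 4-cell TBE lists held 32260, 4166 and 3094 peaks at levels of 0.324, 0.134 and 0.157, and the 4-cell control lists 42012, 22983 and 14355 at 0.494, 0.453 and 0.223. The part of depth in this difference was not tested.

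By regions rather than libraries, 775 of the 1640 (47.3%) were in 4-cell control but not in 4-cell TBE regions, 628 (38.3%) in both, 16 in 4-cell TBE only and 221 in neither. Of the 59 control-only regions, 23 (39.0%) were in 4-cell control but not in 4-cell TBE regions, and 17 (28.8%) in both. Of the 502 shared regions, 453 (90.2%) were in both. The 4-cell control set held 15117 regions and the 4-cell TBE set 3961. These sets took in 39.9% and 15.2% of all 21242 merged regions. In 8-cell TBE, whose lists held 90890, 247513 and 50090 peaks, 96.6, 98.4 and 89.1% of the TBE-only regions had a peak, against 94.7, 94.2 and 94.1% in 8-cell controls. Regions of 8-cell TBE also took in 67.3% of all merged regions and 89.8% of the control-only regions. The lowest shares of the 24 libraries were those of 4-cell TBE replicates 2 and 3.

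**Figure D5:**
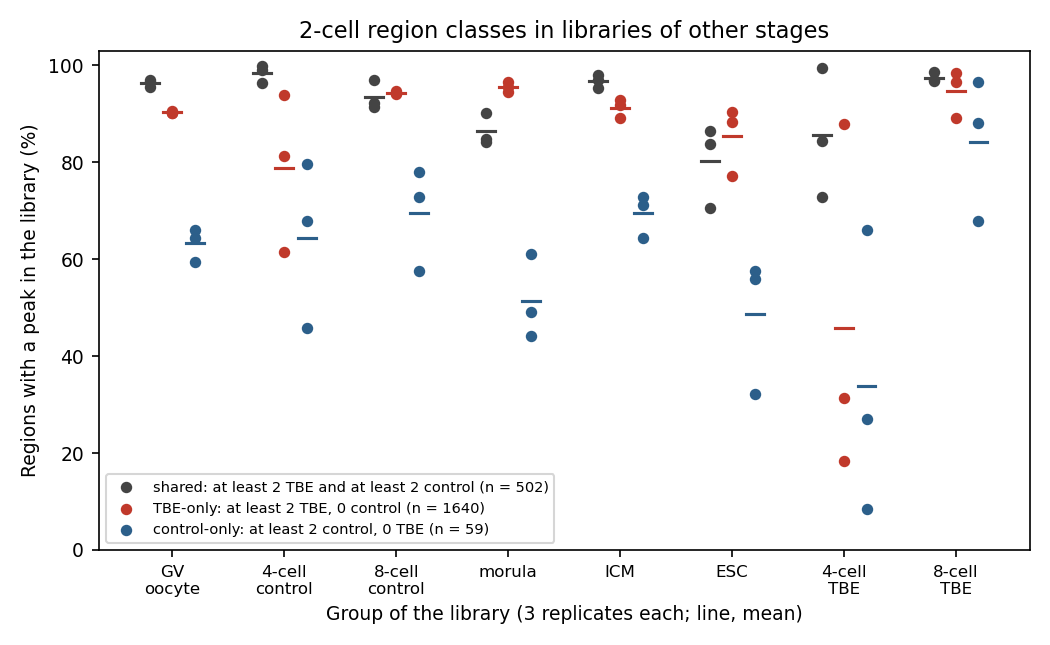
Percentage of shared, TBE-only and control-only 2-cell regions with a peak in each library of the other 8 groups (points, 3 replicates each, with a line at the mean). TBE-only regions are found in 90.1 to 90.7% in GV oocytes and in 18.3 to 87.9% in 4-cell TBE, while shared regions stay at 72.9% or above in 4-cell TBE.

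Single regions are given as examples, in ARS-UCD1.2 and ranked by mean fold enrichment within each class, on assembled chromosomes. Genes at these positions were not analysed here. Of 68 regions with a peak in every TBE and no control library, chr7:43367163-43367487 led, with fold enrichments of 6.74, 5.85 and 6.57 in TBE. It had a peak in every control library of the other stages, with 5.84, 4.73 and 4.35 in GV oocytes and 6.57, 7.24 and 5.85 in 4-cell controls, and in 2 of 3 libraries of 4-cell TBE. At chr4:7697249-7697526 the values were 5.87, 6.27 and 6.49 in TBE and 7.43, 6.21 and 6.75 in GV oocytes. At the region on chromosome 7 every TBE value lay above every oocyte value, while on chromosome 4 the ranges overlapped. The ranking used these TBE values, so high ones were selected, and the comparison with oocytes is only a description. The 2-cell controls had no called peak at either region, which is not a measured enrichment.

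Of 1490 regions in at least 2 TBE and no control libraries that were also chosen for lying in a GV oocyte region, chr20:327480-327852 led, with 5.72 and 8.11 in TBE replicates 2 and 3. A single region with a peak in at least 2 TBE libraries had none in the other 27 libraries of the series, chr6:47740988-47741420, with fold enrichments of 3.61 and 3.59. On the control side no chromosomal region recurred in all 3 libraries, and 37 were in 2 of 3. The strongest of these, chr17:73141653-73141911, had fold enrichments of 7.20 and 4.73 in control replicates 1 and 3 and of 10.9, 9.03 and 9.04 in GV oocytes. At chr15:50728649-50728929, with 6.89 and 4.23 in the same 2 controls, oocytes had no peak and all 3 4-cell controls had one.

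Regions with a peak in every library allow fold enrichments to be set side by side. Since a constant is added to pileup and background, these values also depend on library depth, which differed. The strongest such region, chr17:5546504-5546987, had fold enrichments of 18.4, 19.1 and 17.9 in TBE and 18.6, 18.2 and 17.1 in controls. Over the 100 regions common to all 6 libraries on chromosomes, the median was 5.98, 6.04 and 6.21 in TBE and 6.00, 5.92 and 5.74 in controls. The groups overlapped, with a difference of 0.193 (exact permutation test, p = 0.2). Over the 83 common regions on scaffolds the medians were 6.14, 6.29 and 6.78 in TBE and 7.07, 6.59 and 7.09 in controls (exact permutation test, p = 0.2). These measures were added after the data had been seen.

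Scaffold peaks took a larger share of short lists in either group. They numbered 180, 258 and 393 in TBE and 224, 239 and 460 in controls, or 19.5, 3.18 and 3.55% against 22.4, 18.9 and 7.14% of peaks. The counts differed far less than the list lengths, and the percentages overlapped (exact permutation test, p = 0.3).

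No greater likeness within than between the groups was detected. The Jaccard index, the length covered by both of 2 lists over the length covered by either, averaged 0.0853 for 3 pairs within TBE, 0.119 for 3 pairs within controls and 0.106 for 9 pairs between them, so that pairs within a group minus pairs between groups came to -0.00397 (exact permutation test, p = 1). The highest index, 0.227, was between TBE replicate 1 and control replicate 2, both short lists. With the overlap coefficient, which divides by the shorter list, the means were 0.519, 0.452 and 0.424, and the order turned round.

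The effect of α-amanitin at the 2-cell stage was set against that at the 4-cell and 8-cell stages. On the log2 number of peaks the difference of TBE minus control was 1.12 at the 2-cell stage, -1.69 in 4-cell embryos and -0.39 in the 8-cell libraries. The effect at the 2-cell stage exceeded that at the 4-cell stage by 2.80 (exact permutation within stages, 400 arrangements, p = 0.16) and that at the 8-cell stage by 1.51 (p = 0.325 by the same exact test). For the share of oocyte regions with a peak, the effect was 7.93 percentage points at the 2-cell stage, -18.9 in 4-cell embryos and 6.96 in the 8-cell libraries, with exact permutation p-values of 0.12 and 0.935 for the differences from the 2-cell stage. The directions at the 2-cell and 4-cell stages were opposite in the means, and neither difference between them passed 0.05. Background levels were 0.324, 0.134 and 0.157 in 4-cell TBE and 0.494, 0.453 and 0.223 in 4-cell controls. The comparison of stages was not run with lists of equal length, and the part of depth in it was not tested. With equal lists the 2-cell difference in oocyte regions was 0.447 points. The comparison with the 8-cell stage depended on the lists. With peaks of -log10 q at or above 3, the 8-cell effects were -1.35 on the log2 number and -9.94 points for oocyte regions, and the differences from the 2-cell stage were 2.50 (exact permutation, p = 0.05) and 15.5 points (exact permutation, p = 0.06). With a fold enrichment of at least 3 the 8-cell effects were -1.30 and -10.0 points, and the differences 2.42 and 18.2 points (exact permutation, p = 0.1 for each).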

How the data were processed

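ATAC-seq of 30 libraries was deposited as 1 broad peak list for each library, with coordinates on ARS-UCD1.2. Per the labels and methods, the authors trimmed reads with Trim Galore and cutadapt 0.4.0, aligned them with BWA 0.7.17, filtered alignments with SAMtools 1.7 and called peaks with MACS2 2.1.1 (versions from the submitters' processing notes). The methods describe calling on pooled reads brought to 1 depth, but the lists differ by library and have unequal background levels, so they were taken as called per library at unequal depth, which bears on every number of peaks. In the deposited lists, the fold enrichment is the pileup plus 1, divided by the local background plus 1, averaged over the peak by the authors' MACS2. At low background levels the added 1 shrinks it, by an amount that depends on the depth of the library. The deposited -log10 p and -log10 q were averaged over the peak likewise. The deposited score, a whole number made by MACS2 from the -log10 q, was not used here.

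Peak lists were compared with Python 3.11.15, numpy 2.4.6 and matplotlib 3.10.9. Overlap required 1 bp, and regions required 2 of 3 replicates. Background levels were solved from at least 3 peaks with a whole-number pileup at a tolerance of 0.0001 on -log10 p. Interval functions and tests were checked on simulated data. Differences in group means were tested by exact two-sided permutation over 20 arrangements of libraries, and p-values were adjusted by Benjamini-Hochberg within families of 8, 8 and 14 measures. Replicates came from separate collections, but reads were not used here, so depth is known only through the background level. Regions named were the 5 with the highest mean fold enrichment in each class, of which the first 1 or 2 are printed. Where no chromosomal region was in all 3 libraries, those in 2 were taken.

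As alternatives, peaks were limited to a -log10 q or fold enrichment of at least 3, to autosomes or to equal numbers of the strongest, overlap was raised to 50%, regions were taken from any replicate, from all replicates or in equal numbers, the overlap coefficient replaced the Jaccard index, single libraries were dropped, and replicate numbers served as a block. The members and measures were chosen with earlier results of these data known. Chromosome spans were taken to the last peak of any list. Genes, cell type markers, promoters, GC content and motifs were not analysed here, since no ARS-UCD1.2 sequence or annotation was used.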

Additional observations from a re-analysis of the deposited data

How the results depend on the processing

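No exact test over 3 libraries against 3 could pass 0.05 under any setting, so the alternatives bear on directions and sizes. The share of extra peaks in oocyte and later regions kept its direction in every alternative run. The groups were no longer separated in it with equal numbers of top peaks on chromosomes 1 to 29 and X. There the difference was 27.8 points (exact permutation test, p = 0.2). With peaks of -log10 q at or above 3, the TBE minus control difference turned to -0.213 for median fold enrichment, -0.88 for median -log10 q, -6.77 points for the share in 4-cell control regions, -0.549 points for 8-cell TBE regions and 0.401 points for extra peaks in oocyte regions only, and the Jaccard difference within minus between groups to 0.0123. On these lists 7 regions were in all TBE and no control libraries, 390 in at least 2 TBE and no control, and 27 in at least 2 control and no TBE libraries. On autosomes only, the share in 4-cell TBE regions turned to 2.88 points, and 0 and 35 regions remained in all and in at least 2 control and no TBE libraries. With equal numbers of top peaks, covered length turned to -0.16 (log2), median width to 11 bp, the share in 4-cell TBE regions to 12.3 points and the Jaccard difference to 0.0201. The same on chromosomes 1 to 29 and X, added after the data had been seen, gave -0.062, 15 bp, 16.6 points and 0.0096, and turned the log2 number of extra peaks to -0.021 and their share to -1.57 points. Regions from any replicate gave 7.16 points for 4-cell TBE regions. Equal numbers of top regions gave -0.329 points for 8-cell TBE regions, 1.74 for extra peaks in oocyte regions only and 5.83 for those in later regions only. An overlap of 50% left 35 regions in all TBE and no control libraries, and the overlap coefficient gave 0.0623 in place of the Jaccard difference. Equal numbers of top peaks also cut the difference in the share of oocyte regions with a peak to 0.447 points. The causes were not tested.

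When single libraries were left out, differences ranged from -46.6 to 8.67 bp for median width, from -0.156 to 0.195 for fold enrichment, from -3.29 to 9.65 points for 4-cell control regions, from -12.6 to 4.95 points for 4-cell TBE regions, from -0.751 to 36.7 points for the share of extra peaks, from -0.953 to 0.16 points for X and from -0.0245 to 0.0491 for the Jaccard difference. Regions in all TBE and no control libraries ranged from 71 to 1553, in all control and no TBE from 9 to 30, in at least 2 TBE and no control from 92 to 2583, and in at least 2 control and no TBE from 12 to 136. Fewer libraries make these rules easier or harder to meet.

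Deviations of same-numbered libraries had correlations of -0.193, 0.0422 and -0.103, and 1 of 3 TBE libraries correlated best with the control of its number. With 3 libraries in each group this check can neither show nor exclude pairing. The labels do not say that a number marks a collection, so the numbers were not taken as pairs. With a replicate block, the difference in log2 number of peaks was 1.12 (exact sign-flip permutation test, p = 0.5), and no exact p could go below 0.25.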

Other observations

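The share of autosomal peaks on chromosomes 18, 19 and 25 was higher in each TBE library than in any control library. Chromosomes 18, 19 and 25 are small, gene-dense chromosomes of cattle, and they were chosen here after the data had been seen. They held 11.2, 10.4 and 11.6% of the autosomal peaks in TBE and 8.63, 8.96 and 8.19% in controls, without overlap of the groups. The means were 11.1 ± 0.587% and 8.59 ± 0.386% (SD, n = 3 each), with an exact permutation p = 0.1 (adjusted p = 0.35 over 14). In GV oocytes the share was 12.3, 12.6 and 11.5%, in 4-cell controls 9.98, 10.1 and 10.1%, and these chromosomes made up 6.90% of the autosomal length. With an equal number of top peaks the means were 12.3% and 8.19%, and for the stricter lists (-log10 q of at least 3) they were 10.7% and 4.93%, where the groups were no longer separated (exact permutation test, p = 0.3).

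The X chromosome held 4.00, 1.77 and 2.18% of TBE peaks and 3.59, 2.38 and 2.83% of control peaks, which overlapped (exact permutation test, p = 0.7).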
